A study of Mus musculus with 30 samples.

Results

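The transcripts Misp3 and 0610012D14Rik were followed in AtT-20 cells, a mouse pituitary tumour line of corticotrope type, during exposure to corticotropin-releasing hormone (CRH). On the array used here both go by RIKEN clone names, and RefSeq lists 2210011C24Rik as Misp3 and 0610012D14Rik as an older name of Aspdh. A spot of each was taken by its number in the scanner files, and every other spot with either name was added. This gave 3 of 22830 gene spots, 1 of Misp3 in print-tip block 47 of 48 and 2 of 0610012D14Rik in blocks 5 and 20. The first 0610012D14Rik spot, in block 5, is meant below wherever the second is not named. It and the Misp3 spot had been chosen by their mean CRH effect over the whole time course, so their mean ratios against 0 are described below without a test.

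Serum-deprived cells received 100 nM human/rat CRH or none, and RNA was taken after 1, 3, 6, 12 and 24 h. CRH-treated and untreated RNA of a time point were hybridised together on 6 spotted cDNA arrays, giving 30 arrays. Replicates 1 to 3 carried the CRH sample labelled with Cy3 and replicates 4 to 6 carried it labelled with Cy5. The 6 arrays of a time point shared 1 pair of RNA extracts of this single cell line, so p-values over arrays measure the spread between hybridisations and not between cultures. In RNA of whole cultures, more RNA per cell and more cells that make it cannot be told apart. All values are log2 ratios, CRH-treated over untreated, unless stated, so 1 means a doubling. Of all gene spots, 14375 were brighter than the lowest 10% in both channels of every array and were tested.

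CRH binds its receptor CRHR1 on corticotropes, which raises cAMP and activates protein kinase A. Among the outcomes are phosphorylation of the transcription factor CREB, Pomc transcription and ACTH release. Misp3 is a member of the family of Misp, an actin-associated protein that takes part in positioning the mitotic spindle. Aspdh is named for an aspartate dehydrogenase domain, the fold of an enzyme that acts on aspartate. The corticotrope genes Pomc, Neurod1 and Pitx1 were bright on all 30 arrays, where the Pomc spot lay above 95.4% of the gene spots by its median over both channels, the Neurod1 spots above 97.1% and 78.6% and the Pitx1 spot above 98.4%, whereas the only spot of Gh, the hormone of somatotropes, lay above 25.2%. Tbx19, a corticotrope transcription factor, lay above 37.8%, the 8 spots of 4 fibroblast genes lay above between 9.12% and 54.7%, and the leukocyte genes Ptprc and Cd3e above 30.7% and 87.9%.

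CREB binds the cAMP response element TGACGTCA and its core TGACG, so the start regions of both genes are shown, with CpG dinucleotides in capitals because their number separates the 2 sequences. Both are the 250 bases before the RefSeq gene start on the gene's own strand in build GRCm38.p6. The Misp3 stretch is chr8:84011721-84011970 on the minus strand and the Aspdh stretch is chr7:44465185-44465434 on the plus strand.
Misp3: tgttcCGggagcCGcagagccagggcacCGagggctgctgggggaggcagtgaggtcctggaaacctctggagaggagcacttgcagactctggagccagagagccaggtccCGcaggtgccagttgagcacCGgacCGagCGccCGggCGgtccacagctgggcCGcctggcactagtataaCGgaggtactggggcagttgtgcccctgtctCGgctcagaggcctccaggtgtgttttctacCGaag
Aspdh: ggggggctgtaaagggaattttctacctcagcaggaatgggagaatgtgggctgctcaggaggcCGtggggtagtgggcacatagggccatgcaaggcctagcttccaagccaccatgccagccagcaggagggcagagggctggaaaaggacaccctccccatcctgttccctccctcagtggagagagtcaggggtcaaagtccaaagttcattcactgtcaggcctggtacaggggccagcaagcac
The Misp3 stretch held 13 CpG and 65.6% G and C, the Aspdh stretch 1 CpG and 59.2%, against a median of 6 CpG and 52.4% over 32851 such stretches. Searched on both strands, neither stretch held TGACGTCA, which was found in 1.55% of all stretches, or TGACG, which was found in 17.8% and is contained in TGACGTCA. This says only that these letters are not in these windows.

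Misp3 was near the untreated level after 1 h and stood 1.47- to 1.67-fold higher at each later time point. At 1 h its log2 ratio ranged from -0.16 to 0.49 over the 6 arrays with a median of -0.02, and 3 arrays lay above 0. Its mean there was 0.05 ± 0.23 (SD, n = 6), and the highest value came from replicate 3 alone, without which the mean was -0.03 ± 0.09 (SD, n = 5). The 1 h arrays were thus spread around 0 in both dye orientations.

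At 3 h the Misp3 ratio ranged from 0.50 to 0.91 with a median of 0.67 and a mean of 0.68 ± 0.14 (SD, n = 6), a fold of 1.60. At 6 h it ranged from 0.27 to 0.93 with a median of 0.69 and a mean of 0.65 ± 0.26 (SD, n = 6). At 12 h it ranged from 0.47 to 0.88 with a median of 0.78 and a mean of 0.74 ± 0.14 (SD, n = 6), a fold of 1.67. All 6 arrays lay above 0 at each of these time points, as they did for 4.66%, 1.27% and 2.37% of all spots. The choice of Misp3 by its mean favours such counts. At 24 h it ranged from -0.14 to 0.99 with a median of 0.61 and a mean of 0.56 ± 0.40 (SD, n = 6), and replicate 5 was the single array below 0. The 6 values of 3 h lay above all 6 of 1 h, as was so for 1.69% of all spots, while every other pair of time points overlapped.

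The first spot of 0610012D14Rik had its highest mean ratios at 1 and 3 h. At 1 h it ranged from 0.50 to 0.90 with a median of 0.67 and a mean of 0.69 ± 0.15 (SD, n = 6), a fold of 1.61. At 3 h it ranged from 0.58 to 1.27 with a median of 0.72 and a mean of 0.83 ± 0.26 (SD, n = 6), a fold of 1.78. All 12 of these arrays lay above 0, which the choice by the mean favours, and 2.94% of all spots were above 0 on the 6 arrays of 1 h.

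At 6 h the ratio of 0610012D14Rik ranged from -0.14 to 0.74 with a median of 0.40 and a mean of 0.39 ± 0.30 (SD, n = 6). At 12 h it ranged from -0.09 to 0.63 with a median of 0.23 and a mean of 0.24 ± 0.31 (SD, n = 6), a fold of 1.18, with 4 arrays above 0. At 24 h it ranged from -0.12 to 0.67 with a median of 0.39 and a mean of 0.32 ± 0.30 (SD, n = 6), a fold of 1.25, with 5 arrays above 0. The means of both genes thus stayed above 0 from 3 h on, while single arrays lay below 0 at 24 h for Misp3 and at 6, 12 and 24 h for 0610012D14Rik.

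**Figure D1:**
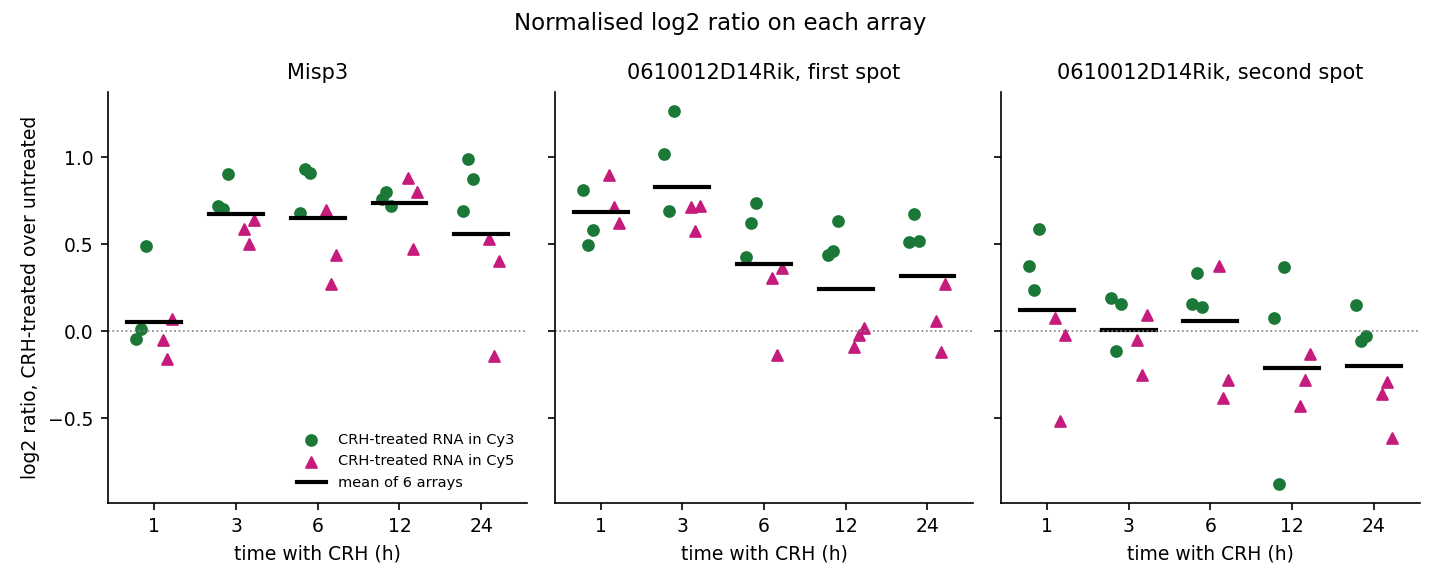
Normalised log2 ratio, CRH-treated over untreated (vertical axis), on each of 6 arrays per time point (horizontal axis, hours with CRH, equally spaced), for the 3 spots. Circles mark Cy3 and triangles Cy5 as the label of the CRH sample, and bars mark the mean of 6 arrays. Misp3 lies around 0 at 1 h, near 0.7 at 3, 6 and 12 h and at a mean of 0.56 at 24 h. 0610012D14Rik has means of 0.83 at 3 h and 0.24 at 12 h, where its triangles lie around 0. The second spot has means between -0.21 (12 h) and 0.12 (1 h).

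The mean over the 5 time points was 0.54 for Misp3 (limma standard error 0.08, SD over time points 0.28) and 0.49 for 0610012D14Rik (limma standard error 0.08, SD 0.25). These standard errors are drawn by limma towards the spread of all spots and are smaller than the SDs alone would give. Ordered by p the pair came last among the 8 spots that limma called in this effect, 7 higher and 1 lower of 14375 (0.0487% and 0.00696%), a fact fixed by the way they were picked. The others were a pair of spots of Syt4, a synaptotagmin of secretory vesicles, with 0.59 and 0.55, Rgs4, which speeds the shut-off of G proteins, with -0.47, AI847070 with 0.47, a spot listed only as EST with 0.66 and one listed as ESTs with 0.52. Next outside in that order lay spot 10217 of tweety homolog 1, a chloride channel family member, with 0.50 (standard error 0.09). Means above 0 at all 5 time points were found for both members, which the same choice favoured, and for 2.87% of all spots.

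That choice was made on the mean against its standard error, which holds the spread between time points. Differences between time points were thus not free of the choice, and they were tested over all spots. By an F test of time with dye orientation as a covariate (n = 30 arrays), Misp3 differed between the 5 time points with p = 3.63e-05 and 0610012D14Rik with p = 0.000123. Both were under 0.01, as were 10.1% of all spots. After Benjamini-Hochberg adjustment over all 14375 spots the values were 0.00309 and 0.00668, and 5.91% of all spots were under 0.05. The study had already listed 0610012D14Rik among its time-dependent genes from these arrays, so its p is not independent evidence.

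By limma between neighbouring time points, Misp3 was 0.62 higher at 3 h than at 1 h (standard error 0.13, adjusted p = 0.00251), a step that 7.61% of all spots passed in either direction and 4.21% upwards. For Misp3 the later steps were -0.02 from 3 to 6 h, 0.08 from 6 to 12 h and -0.18 from 12 to 24 h, each with a standard error of 0.13 and adjusted p between 0.651 and 0.991. For 0610012D14Rik the step from 3 to 6 h was -0.45 (standard error 0.13), which gave p = 0.00169 by limma (n = 30 arrays) but an adjusted p = 0.224, and 0.174% of all spots passed there. Its other steps were 0.15, -0.15 and 0.08 with adjusted p between 0.58 and 0.882. From 6 to 12 h limma called 0 spots (0%, with 1098 at an unadjusted p under 0.05), and from 12 to 24 h 0.466%.

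Set against 1 h, the 4 later time points of Misp3 averaged 0.60 higher (standard error 0.14), with a limma adjusted p = 0.0514, and those of 0610012D14Rik averaged 0.24 lower (standard error 0.18, adjusted p = 0.545). Of all spots 0.57% passed. In this comparison, which was chosen with the 1 h value of Misp3 known, neither member did.

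The 1 h arrays were all quantified on a day that held no other time point. For every spot, 1 h against later times thus cannot be told apart from the day, and the time difference of Misp3 rested on these arrays. With the day as a further term, the F test compares only time points that shared a day, 3 with 6 h and 12 with 24 h. In that test the p of Misp3 was 0.458, and that of 0610012D14Rik was 0.0035. The 3 h and 6 h arrays shared a day, and there 0610012D14Rik averaged 0.99 and then 0.60 with CRH in Cy3, and 0.67 and then 0.18 with CRH in Cy5, a difference that did not pass the adjusted test. In the day that held 12 h and 24 h arrays with CRH in Cy5, Misp3 averaged 0.64 over 2 arrays and 0.26 over 3, and 0610012D14Rik averaged -0.0011 and 0.07. Misp3 also missed the time threshold when 1 loess curve per array (p = 0.0295) or median centring (p = 0.0842) replaced the curve per print-tip block (n = 30 arrays), although its step from 1 to 3 h stayed at 0.63 and 0.64 with adjusted p = 0.0902 and 0.108.

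Both genes read higher on average with CRH-treated RNA in Cy3. Averaged over time points, Misp3 read 0.68 where Cy3 labelled the CRH sample and 0.40 where Cy5 did, and 0610012D14Rik read 0.66 and 0.33. The differences of 0.28 and 0.33 were close to the median absolute difference over all spots, 0.30. A dye difference of this kind cancels in means that hold both orientations equally.

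For 0610012D14Rik the gap between orientations was -0.12 at 1 h and 0.54 at 12 h. At 1 h the Cy3 arrays averaged 0.63 ± 0.16 (SD, n = 3) and the Cy5 arrays 0.75 ± 0.14 (SD, n = 3). At 12 h they averaged 0.51 ± 0.10 (SD, n = 3) and -0.03 ± 0.05 (SD, n = 3), and at 24 h 0.57 ± 0.09 (SD, n = 3) and 0.07 ± 0.20 (SD, n = 3). All 3 Cy3 arrays lay above all 3 Cy5 arrays at 12 h and at 24 h, as they did for 22.1% and 21.7% of all spots. The test of time by dye orientation (n = 30 arrays) gave p = 0.0249, above the limit of 0.01 that 14.8% of all spots passed, so a change of the gap with time was not called. For Misp3 the gap ran from 0.04 at 12 h to 0.59 at 24 h, with p = 0.19 (n = 30 arrays).

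Before normalisation both spots were bright. Over 60 channel readings Misp3 ranged from 450 to 8634 scanner counts with a median of 3351 and 0610012D14Rik from 546 to 6922 with a median of 3750, against median local backgrounds of 2.67 and 2.59. The dimmest reading of each was 2.64 and 3.51 times the dim limit of its channel. Pixel scatter within the spot, as SD over mean, had a median of 0.29 for Misp3 and 0.27 for 0610012D14Rik, against 0.36 for all tested spots.

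Unnormalised Misp3 readings after 3 h ranged from 5391 to 8634 with a median of 6777 in the CRH-treated channel and from 1961 to 5585 with a median of 3334 in the untreated channel. After 1 h they had ranged from 3513 to 5883 with a median of 4926 and from 3211 to 5771 with a median of 4237. The CRH-treated channel was the brighter on 4 of 6 arrays at 1 h, on 6 of 6 at 3 h and on 5 of 6 at each later time point.

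For 0610012D14Rik the readings at 1 h ranged from 4014 to 6129 with a median of 4198 in the CRH-treated channel and from 2002 to 3752 with a median of 2821 in the untreated one. At 24 h they ranged from 3969 to 5956 with a median of 4545 and from 2585 to 6786 with a median of 4698. The CRH-treated channel was the brighter on all 12 arrays of 1 and 3 h, and on 3 of 6 at 6, 12 and 24 h, where it was always the Cy5 channel.

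These unnormalised ratios carry the brightness of the whole channel. At 24 h the median raw log2 ratio of the tested spots ranged from -0.85 to 0.29 over the arrays and averaged -0.29, and the raw mean of 0610012D14Rik was 0.04 against 0.32 after normalisation. At 3 h the tested spots averaged 0.38, and the raw mean of Misp3 was 1.09 against 0.68.

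**Figure D2:**
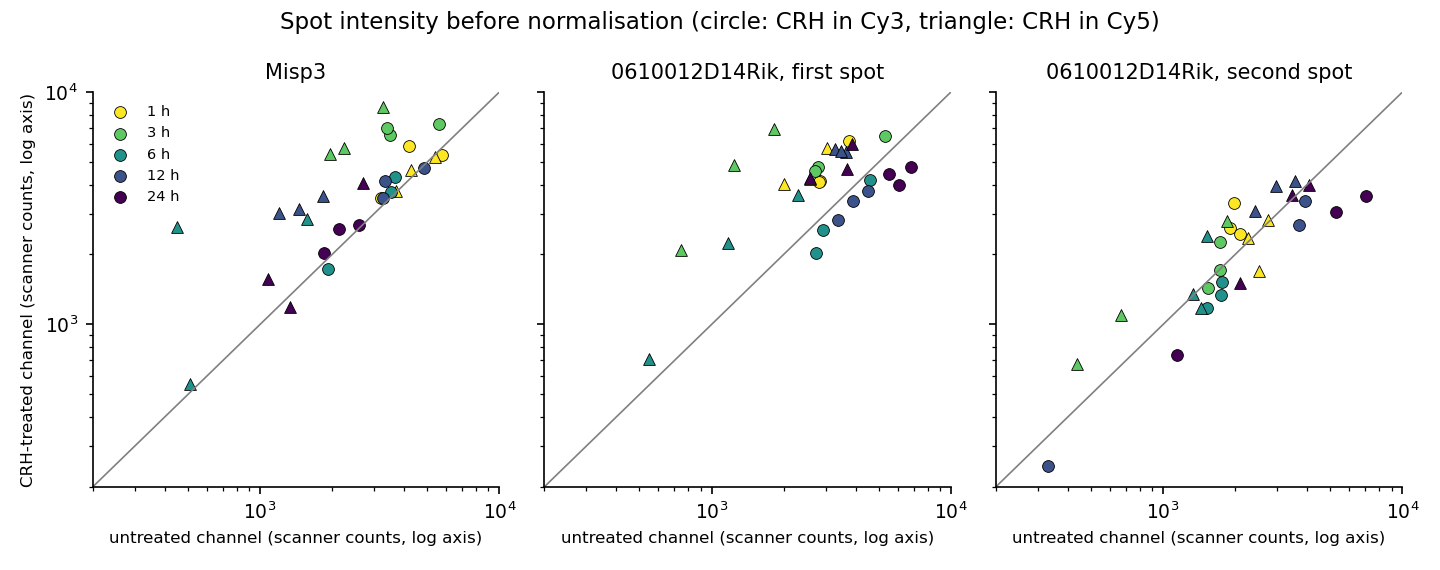
Spot intensity before normalisation in the CRH-treated channel (vertical axis) against the untreated channel (horizontal axis), both in scanner counts on log axes, for the 3 spots on 30 arrays. Colour marks the time point, circles and triangles mark Cy3 and Cy5 as the label of the CRH sample, and the line marks equal intensity. Misp3 lies above the line on 25 arrays, 0610012D14Rik on 21 and the second spot on 15.

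Divided by the median of its channel, untreated Misp3 stood at 4.04 ± 0.78 at 1 h, 3.96 ± 0.99 at 3 h and then 2.43 ± 1.39, 1.86 ± 0.81 and 1.18 ± 0.32 (SD, n = 6 each) at 6, 12 and 24 h. These are levels without a test. The 3 h and 6 h arrays were quantified on the same day, the 1 h arrays on a day of their own, and 12 h and 24 h arrays shared a day in part. The CRH-treated level was 4.32 ± 0.77 at 1 h, 6.71 ± 1.59 at 3 h and 1.75 ± 0.61 at 24 h (SD, n = 6 each). The higher ratio of Misp3 at 24 h thus stood between lower levels in both channels than the even ratio at 1 h.

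The untreated level of 0610012D14Rik stayed between 2.59 and 3.09 times the channel median. Its CRH-treated level was 4.33 ± 0.78 at 1 h, 4.85 ± 1.71 at 3 h and 3.52 ± 0.28 at 24 h (SD, n = 6 each).

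**Figure D3:**
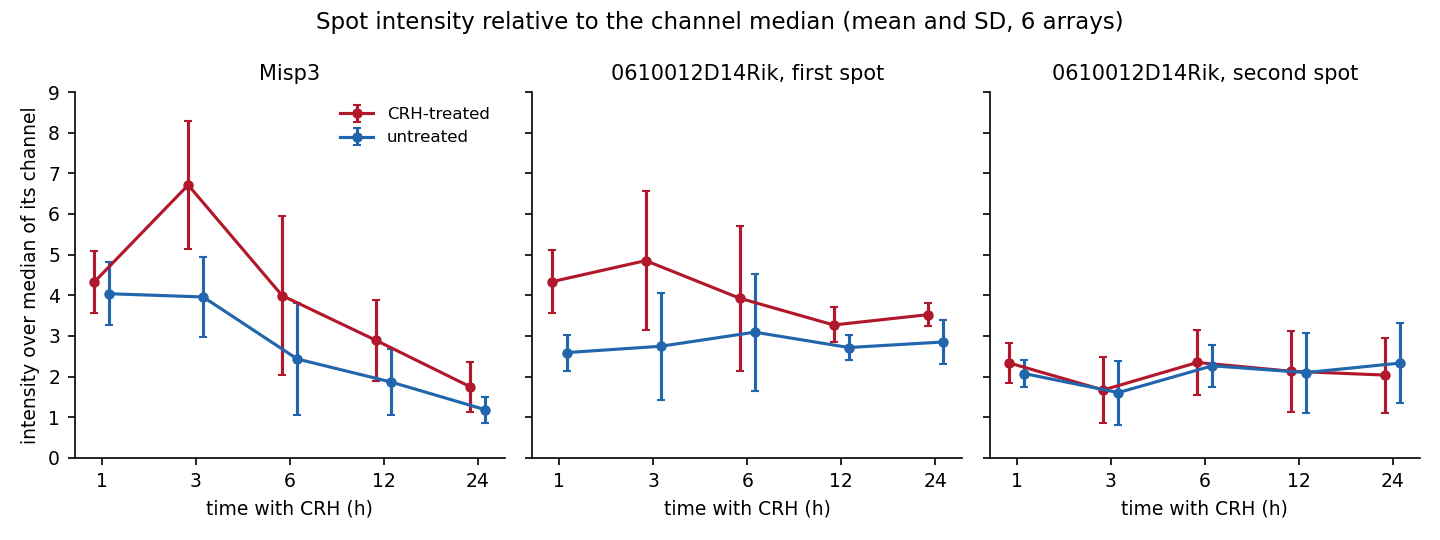
Unnormalised intensity over the median of its channel (vertical axis), mean and SD of 6 arrays, by hours with CRH (horizontal axis, equally spaced), for CRH-treated (red) and untreated (blue) RNA. Both levels of Misp3 are lower at 24 h (1.75 and 1.18) than at 1 h (4.32 and 4.04), those of 0610012D14Rik approach each other, and those of the second spot overlap throughout.

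The second 0610012D14Rik spot lay around 0 at 1, 3 and 6 h and averaged -0.21 at 12 h and -0.20 at 24 h. It was above the dim limit on 29 of 30 arrays and was therefore not among the tested spots, since on replicate 2 of 12 h it read 247 and 329 counts. Its ratios come from the same normalisation without the filter, over 22830 gene spots. At 1 h it ranged from -0.51 to 0.59 with a median of 0.16 and a mean of 0.12 ± 0.38 (SD, n = 6), and at 3 h from -0.25 to 0.19 with a median of 0.02 and a mean of 0.01 ± 0.17 (SD, n = 6).

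At 6 h the second spot ranged from -0.39 to 0.38 with a median of 0.15 and a mean of 0.06 ± 0.32 (SD, n = 6). At 12 h it ranged from -0.88 to 0.37 with a median of -0.20 and a mean of -0.21 ± 0.43 (SD, n = 6), or -0.08 ± 0.31 (SD, n = 5) without the dim replicate 2. At 24 h it ranged from -0.61 to 0.15 with a median of -0.17 and a mean of -0.20 ± 0.28 (SD, n = 6). It thus lay above 0 on 14 of 30 arrays.

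Its mean over the 5 time points was -0.04 (standard error 0.07, SD over time points 0.15, limma adjusted p = 0.979), and -0.01 without replicate 2 of 12 h. No spot of the array, the first one included, was called for the mean in that fit. In the same fit the first spot averaged 0.49 and exceeded the second spot on 29 of 30 arrays, by 0.54 on average. At 3 h the lowest value of the first spot, 0.53, lay above the highest of the second spot, 0.19. The second spot had p = 0.172 for time and 0.675 for time by dye (n = 30 arrays).

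The spots had in common that both read lower at 12 and 24 h than at 1 h, with a Pearson r of 0.47 over the 30 arrays, which share dye orientation and hybridisation. The second spot was the dimmer, with readings from 247 to 7016 and a median of 2102, and its pixel scatter reached 1.37 on the dim array. The files give a name and no sequence for each spot, so whether both carry the same transcript was not tested, and the ratio of 0610012D14Rik rests on 1 spot of 2.

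The choice of processing moved the time means of the members little. Over 10 settings Misp3 at 1 h lay between 0.03 and 0.10 and at 12 h between 0.67 and 0.79, and its widest range was 0.64 to 0.82 at 6 h. 0610012D14Rik lay between 0.73 and 0.92 at 3 h, between 0.21 and 0.27 at 12 h and between 0.26 and 0.35 at 24 h. Every mean stayed above 0 in the 10 settings. In the authors' own deposited ratios Misp3 was 0.47 and 0610012D14Rik 0.26 at 24 h.

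**Figure D4:**
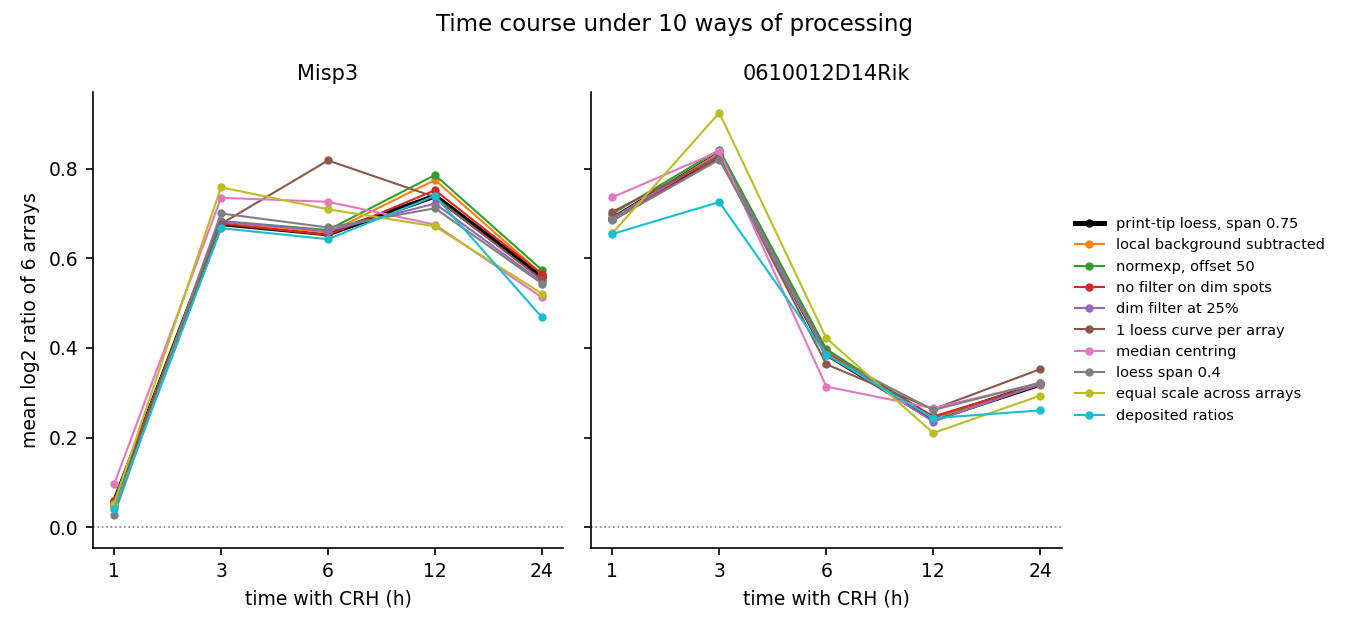
Mean log2 ratio of 6 arrays (vertical axis) by hours with CRH (horizontal axis, equally spaced) under 10 ways of processing, with the reported one in black. Lines of a gene run together, with the widest spread for Misp3 at 6 h (0.64 to 0.82) and for 0610012D14Rik at 3 h (0.73 to 0.92).

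The genes whose pattern was most like that of each member were named by a fixed measure. By the root mean square difference of the 5 time means, the nearest to Misp3 among 4694 spots with a gene symbol were 4930555G01Rik (0.14), a spot of Syt4 (0.19), Odc1, the first enzyme of polyamine synthesis (0.22), and Zcchc12 (0.22). Spot 8675 of 4930555G01Rik ran at -0.04, 0.73, 0.42, 0.61 and 0.46 over 1, 3, 6, 12 and 24 h. Spots with a descriptive name only were nearer still, and these were singled out after their values were seen. The pair of tweety homolog 1 spots differed from Misp3 by 0.06 and 0.13, and spot 10217 ran at 0.01, 0.56, 0.60, 0.76 and 0.55.

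Nearest to 0610012D14Rik by the same measure were a spot the study named Fosl2 (0.21), an AP-1 family member, although the array lists the spot as ESTs weakly similar to a septin, which is another gene, the other Syt4 spot (0.21), Rasl11b, a Ras-like small GTPase (0.25), 2610042L04Rik (0.26) and a clone the study named Kif3a (0.29). The Fosl2 spot ran at 0.88, 0.48, 0.22, 0.38 and 0.18, and Rasl11b at 0.68, 0.43, 0.14, 0.01 and 0.10. Again a spot without a symbol was nearer, the one listed as ESTs and called for its mean, which differed by 0.10 and was singled out after its values were seen. It ran at 0.84, 0.72, 0.43, 0.35 and 0.26.

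Over the 30 single arrays, after removing the mean of each dye orientation, the highest Pearson r with Misp3 were those of Sema6c, a semaphorin (0.82), Tmem176a (0.77), Eif3b, a translation initiation factor subunit (0.75), Snx11 (0.69) and Arpin (0.67). With 0610012D14Rik they were those of Slc37a3 (0.73), Dipk2a (0.73), Ubxn2a (0.71), Mat2a, which makes S-adenosylmethionine (0.71), and Rps27l (0.70). All these ratios come from the same arrays. The mean over time points was 0.19 for Sema6c and 0.02 for Tmem176a, and -0.05 for Slc37a3. Between Misp3 and 0610012D14Rik themselves r was -0.13 over 30 arrays and the time means differed by 0.40, more than from any gene named above by that measure.

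**Figure D5:**
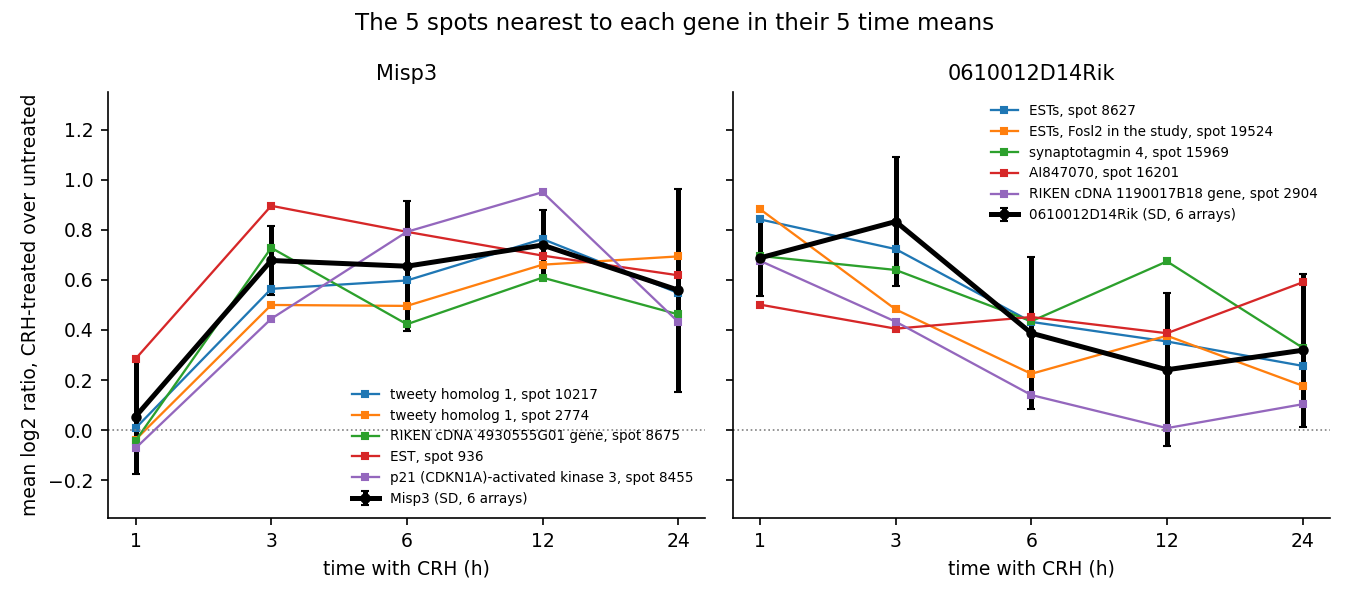
Mean log2 ratio (vertical axis) by hours with CRH (horizontal axis, equally spaced) for Misp3 and 0610012D14Rik (black, with the SD of 6 arrays) and for the 5 tested spots, with or without a symbol, nearest to each. The spots near Misp3 lie between -0.07 and 0.28 at 1 h, and those near 0610012D14Rik between 0.50 and 0.88.

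Genes next to the members on their chromosomes were mostly not measured. Of the 4 protein-coding genes on either side of Misp3 in RefSeq, Asf1b, a histone chaperone, and Prkaca, the catalytic subunit of protein kinase A, had a tested spot, with means over time of -0.06 each and p for time of 0.324 and 0.957. Near Aspdh the tested ones were Emc10 with 0.01 and Fam71e1 with 0.05, with p for time of 0.0605 and 0.0967. None of these 4 spots was under 0.01 for time, as 10.1% of all spots were, and 4 spots are too few to differ from that share.

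Gene lists of the pathway describe the rest of the response, and the members, chosen by their means, are not compared with them. Of 39 cAMP and CREB target genes 18 had tested spots, and their 24 spots had a median mean ratio of 0.03, against -0.01 for all spots, with none called for the mean (0.0487% higher and 0.00696% lower of all spots). Of the 24, 8 (33.3%) were under 0.01 for time, against 10.1% of all spots, and 4 (16.7%) had means above 0 at all 5 time points, against 2.87%. Among them the largest means over time were those of the spots the study named Fosl2 (0.62 and 0.43), both listed under other names on the array, Odc1 (0.41), Pde4b, a cAMP phosphodiesterase (0.27 and 0.16), and Rgs2, a regulator of G protein signalling (-0.25 and -0.04). The 8 spots under 0.01 for time held both named Fosl2 and both of Id2, so they stand for fewer genes. Time by dye, for which the study set spots aside, was under 0.01 for 5 of the 24, against 14.8% of all spots. Odc1, Pomc and an Id2 spot were under 0.01 in both tests, with Pomc and Id2 named after their values were seen. Of 41 genes of CRH receptor and cAMP signalling 24 had tested spots, with a median of -0.01 over 40 spots, Rgs4 called lower and 5 (12.5%) under 0.01 for time, near the 10.1% of all spots. Above 0 at all 5 time points were 2 of the 40 (5%). Time by dye was under 0.01 for 6 of the 40, Rgs4 among them. After Rgs4, Pde4b and Rgs2 the largest mean in size was that of 1 of 4 spots of Prkar1a, a regulatory subunit of protein kinase A, with 0.19, and its other spots had 0.09, -0.05 and -0.04.

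Of 30 corticotrope secretion genes 19 had tested spots, with a median of 0.01 over 27 spots, where both called spots were of Syt4 and the remaining Syt4 spot had a mean of -0.02. Next in size came Neurod1, a corticotrope transcription factor, with -0.40 and -0.31 over its spots, Tbx19 with -0.16 and Syt7, a calcium sensor, with 0.14, none of them called for the mean. Under 0.01 for time were 4 spots (14.8%, against 10.1% of all spots), those of Neurod1, the single Pomc spot (mean 0.11) and 1 of 2 spots of Cpe, a peptide processing enzyme (mean 0.03), of which the last 2 genes were named after their values were seen. Time by dye was under 0.01 for 12 of the 27 spots, against 14.8% of all spots, and the Neurod1 and Pomc spots were among them. The study set aside spots with such an interaction. Above 0 at all 5 time points were 3 of the 27 (11.1%). Of 34 genes of spindle positioning and cortical actin, the setting of the Misp family, 24 had tested spots, with a median of 0.02 over 36 spots. None of the 36 was above 0 at all 5 time points, against 2.87% of all spots, and 3 (8.33%) were under 0.01 for time, against 10.1%. The largest means in that list were those of Actr3 (-0.13), Cdk1 (0.12), Cttn (0.10 and 0.08) and Rdx (-0.10 and 0.09 over its spots).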

How the data were processed

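Spot intensities on a linear scale were read by the authors with QuantArray from both channels of each array and deposited per spot with local background. The authors also deposited log2 ratios of 12593 spots, used here as an alternative, which correlated with the recomputed ratios at r between 0.977 and 0.994 over 11341 shared spots. The dye of each channel was taken from the file headers. Intensities were used without background subtraction. Spots in the lowest 10% of either channel on any array were dropped. The log2 ratios were corrected by loess per print-tip block (48 blocks, span 0.75, 4 iterations) and turned to CRH-treated over untreated.

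Time and time by dye were tested by F tests of linear models (p under 0.01), the other comparisons with limma 3.58.1 in R 4.3.3 (Benjamini-Hochberg over all spots, adjusted p under 0.05). Means over time points used 1 average per time point. All tests were checked on simulated data. Members, lists and the comparison of later times with 1 h were chosen with earlier results of these data known. The text names the members, the 5 nearest spots by each of 2 measures, spots called for the mean and up to 4 genes per list with the largest mean; 1 of the nearest spots is not reported here. Gene symbols came from RefSeq synonyms (6959 spots), gene names (172) or the study's table (89). The number of arrays limits the precision over hybridisations only. Each time point had 1 pair of RNA extracts, so the spread between cultures was not measured. Replicate numbers were not treated as pairs.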

Additional observations from a re-analysis of the deposited data

Results flagged for a closer look

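On the 1 h arrays of Misp3, replicate 3 stood apart from the other 5 with a log2 ratio of 0.49, against 0.07 for the next highest, a gap of 0.647 of the whole range. It was the only one of 15 sets of 6 arrays (3 spots at 5 time points) with such a gap, and chance gives about 1 in 20.

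The CRH effect differed between time points by the F test (n = 30 arrays), for Misp3 with p = 3.63e-05 and for the first 0610012D14Rik spot with p = 0.000123. Between 3 h and 1 h the log2 ratio of Misp3 differed by 0.62, tested with limma.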

How the results depend on the processing

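The mean of Misp3 stayed between 0.40 and 0.68 and that of 0610012D14Rik between 0.33 and 0.66 over 23 alternatives, the extremes of both coming from arrays of 1 dye orientation. 0610012D14Rik kept its time call in all 18 alternatives (p between 1.33e-05 and 0.0035 by F test). The highest p came with the day as a term, where 1 h is not compared with later times. Misp3 lost it with 1 loess curve per array (0.0295), median centring (0.0842), the day of quantification as a term (0.458) and time in hours as a number (0.139), and lost its step from 1 to 3 h with 1 curve per array (0.63) and median centring (0.64). Its later minus 1 h difference passed with the 25% dim filter (log2 difference 0.61) and the robust trended prior (0.60), with limma adjusted p between 0.014 and 0.215 over 16 alternatives. That difference ranged from 0.56 to 0.68 without single replicates, passing without replicate 5. Time by dye of 0610012D14Rik passed with span 0.4 (p = 0.00995, n = 30 arrays).

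Same-numbered arrays did not deviate together (r from -0.02 to 0.05 over 60 pairs of arrays). With a replicate block the time p was 4.67e-06 for Misp3 and 0.000207 for 0610012D14Rik, the step from 1 to 3 h of Misp3 kept its call, and 14 spots in place of 25 were called between 3 and 6 h.

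Counts of spots over the whole array moved more. The mean effect called 8 spots, 0 without the dim filter, 3 with the 25% filter, 44, 5, 4 and 5 without the arrays of 1, 6, 12 and 24 h, and 3377 or 4386 with 1 dye orientation, where dye differences do not cancel. Time called 1448, 457 with the day and 491 with hours, and time by dye 2131 and 1075 with hours. Later minus 1 h called 82, 0 without the filter, 167 with the 25% filter, 9 with median centring, 52 with span 0.4, 10 with equal scale and 299 with the robust prior. Between 3 and 6 h 25 became 44 with the 25% filter, 7 with 1 curve per array, 76 with equal scale and 1 with deposited ratios. Leaving out single replicates gave 915 (without replicate 2) to 1281 for time, 5 (without replicate 2) to 117 for later minus 1 h, 369 to 1046 for 1 to 3 h (1094 with all, lowest without replicate 1) and 2 to 14 for 3 to 6 h (lowest without replicate 5). Between 6 and 12 h 0 to 2 spots and between 12 and 24 h 17 to 67 (67 with all) were called over all alternatives. Where no cause is given, the cause was not tested.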
